A study of Mus musculus with 23 samples.

Results

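Adrenomedullin and the parts of its receptors were followed in the hippocampus of mouse pups made anemic by blood draws. The set has 5 genes, Adm, Calcrl, Ramp1, Ramp2 and Ramp3, taken by symbol from a count table of 24421 rows. All 5 had a row and all 5 were among the 15475 genes that passed the low-count filter, with at least 19 counts each in every library. The genes were chosen by name, Adm with its measured rise in the anemic groups of these libraries already known and the other 4 as the parts of its receptors. The levels and changes of Adm are therefore given as a description, with their errors and no test, while its receptor genes are given with the test across all genes.

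Polyadenylated RNA of the hippocampus was sequenced on postnatal day 14 in 23 libraries of 6 groups, 3 levels of phlebotomy-induced anemia (PIA) in 2 sexes. Control pups were pricked with a needle at the neck and lost no blood to draws (non-bled controls, NBC). Anemic pups were bled from the facial vein from postnatal day 3, at 5.25 µl for each g of weight and 2 times a day, and at 3.5 µl for each g daily after a goal was met. The goal was a haematocrit, the red cell share of blood volume, of 25% in moderate (mPIA) and 18% in severe (sPIA) anemia. Each group had 4 libraries, except NBC males with 3 (numbered 2, 3 and 4). The sources used here do not name the strain, the litters or the haematocrit each pup reached. Since the design text counts 4 animals for each sex and level, each library is taken as 1 mouse, and p-values measure the spread between these libraries.

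Adrenomedullin is a secreted peptide that widens blood vessels and tightens the endothelial barrier, and its gene is a known target of the transcription factors that are stabilised by low oxygen. Its receptor is made of Calcrl, a receptor of the calcitonin family that couples to the stimulatory G protein and raises cyclic AMP, and of a single-pass partner of the RAMP family that carries it to the cell surface and sets which peptide it binds. With Ramp2 or Ramp3 the complex is an adrenomedullin receptor, while with Ramp1 it is the receptor of calcitonin gene-related peptide (CGRP). In brain, Calcrl and Ramp2 are known from the endothelium, and the RAMPs are also made by other cells, neurons among them.

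The stretch before the start of Adm is shown, as the ligand and the gene listed for its rise. Adm lies on chromosome 7 at 110627661-110629820 on the plus strand (mm10, GENCODE M21). RefSeq (GRCm38.p6) gives the 250 bases that precede its start, chr7:110627407-110627656 on the plus strand, printed 5′ to 3′ with motif matches in capitals.
Adm: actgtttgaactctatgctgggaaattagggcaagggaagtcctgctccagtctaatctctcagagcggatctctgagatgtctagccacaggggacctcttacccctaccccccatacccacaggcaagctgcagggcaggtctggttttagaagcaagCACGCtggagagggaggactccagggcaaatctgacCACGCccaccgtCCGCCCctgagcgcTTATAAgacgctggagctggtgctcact
The capitals mark TATAA, read on both strands at 27 and 28 bases before the start in matches that overlap, GGGCGG, read on the minus strand at 42 bases before it, and GCGTG, read on the minus strand at 54 and 90 bases before it. The core letters bound by hypoxia-inducible factors are ACGTG or GCGTG. Of 32851 windows of the same length in this RefSeq table, 22.8% hold TATAA on either strand, 32.7% hold GGGCGG and 28.2% hold GCGTG. The letters ACGTG (in 16.6% of windows) and CCAAT (in 33.8%) are not in these 250 bases on either strand. A match is a description of letters and not a site.

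The other genes lie on other chromosomes. Calcrl spans chromosome 2 from 84330626 to 84425411 on the minus strand. Ramp1 spans chromosome 1 from 91179822 to 91225196 on the plus strand. Ramp2 and Ramp3 are both on the plus strand of chromosome 11, Ramp2 at 101246028-101259546 and Ramp3 at 6658521-6677475. Of the bases in Ramp2 exons, 33.4% are shared with exons of Vps25 on the same strand, so its counts are uncertain. Ramp3 shares 7.32% of its exon bases with the opposite-strand pseudogene Gm11978, and the sources used here do not name the strand setting of the counting. Counts are per gene and do not separate coding from untranslated exon parts.

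Library totals lay between 15234793 and 26355712 counts, with 44362539 in mPIA female 3. NBC male 4 stood apart in markers of choroid plexus, with a summed level of 4690 CPM, counts per mega-count of the library scaled by TMM factors. NBC male 3, NBC female 2 and sPIA female 2 had 2630, 2110 and 1410 CPM of them, while each of the other 19 libraries had at most 259 CPM. Hippocampal excitatory neuron markers summed to between 5440 and 7300 CPM, and none of the 10 was at 0 in any group. Bulk RNA cannot tell fewer cells of a type from less RNA per cell.

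Per kilobase of exon, the partners Ramp1 and Ramp2 stood above the receptor, and the receptor above the ligand. Ramp1 was highest at a median over the 23 libraries of 17.2 CPM per kb (range 12.7 to 21.3). Ramp2 followed at 7.14 CPM per kb, or 10.7 when only the exon bases it does not share were counted as its length. Calcrl had a median of 3.35 CPM per kb (2.48 to 4.8), Adm 2.13 (0.702 to 3.92) and Ramp3 1.51 (0.73 to 3.94). Thus the CGRP receptor partner Ramp1 lay above the adrenomedullin receptor partner Ramp2 in every library, and the ranges of Adm and Ramp3 overlapped on this scale. By mean log2 CPM over the libraries, Ramp3 stood at percentile 16.8 and Adm at 20 of all genes tested, against 69.6 for Ramp1. Adm rested on 21 to 195 counts a library and Ramp3 on 19 to 135, which sets their precision.

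Adm, the ligand, was higher in every anemic group than in the controls of the same sex. Its mean in females was 1.38 CPM without bleeding, 3.63 with moderate and 4.71 with severe anemia. The means in males were 2.49, 3.99 and 3.82 CPM. The 4 anemic groups overlapped one another, and the groups that stood lowest were both control groups, the females below the males.

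NBC female libraries 1 to 4 had 1.6, 1.24, 1.14 and 1.56 CPM of Adm (1.38 ± 0.23, SD, n = 4), from 21 to 27 counts each. The mPIA females had 2.79, 3.2, 4.28 and 4.23 CPM (3.63 ± 0.748, SD, n = 4). The sPIA females had 4.98, 2.85, 6.35 and 4.66 CPM (4.71 ± 1.44, SD, n = 4). Every anemic female thus lay above every control female, and the range of the sPIA females took in 3 of the 4 mPIA females. The fitted log2 change from NBC was 1.40 (SE 0.24) in mPIA and 1.77 (SE 0.24) in sPIA, or 2.64-fold and 3.41-fold. Between sPIA and mPIA females the log2 change was 0.37 (SE 0.21), with ranges that overlapped. The sPIA female lowest in Adm, library 2, was the one with 1410 CPM of choroid plexus markers, and their part in its value was not tested.

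NBC male libraries 2, 3 and 4 had 2.86, 2.3 and 2.3 CPM of Adm (2.49 ± 0.324, SD, n = 3). The mPIA males had 3.7, 3.97, 4.22 and 4.07 CPM (3.99 ± 0.218, SD, n = 4), and the sPIA males had 3.69, 3.44, 4.81 and 3.32 CPM (3.82 ± 0.683, SD, n = 4). Again every anemic male lay above every control male, by a smaller step than in females. The log2 change from NBC was 0.68 (SE 0.24) in mPIA and 0.62 (SE 0.24) in sPIA, or 1.61-fold and 1.53-fold. From mPIA to sPIA males it was -0.07 (SE 0.21), within its error of 0. With 1 library left out, NBC male 4 among them, the changes from NBC lay between 0.62 and 0.78 in mPIA and between 0.49 and 0.72 in sPIA males. Choroid plexus markers differed in the same comparisons: all 10 had negative log2 changes, with a median of -5.73 in mPIA and -4.12 in sPIA males, and NBC males 3 and 4, both at 2.3 CPM of Adm, held 2630 and 4690 CPM of them. With these 2 libraries, NBC female 2 and sPIA female 2 left out together, the Adm change was 0.48 (SE 0.31) in mPIA and 0.42 (SE 0.31) in sPIA males, resting on NBC male 2 as the only control, which is assumed to vary like the other groups. In females the same step gave 1.36 (SE 0.23) and 1.90 (SE 0.24).

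The Adm ranges did not overlap in any of the 4 comparisons with NBC. Among all genes tested, the share higher with no overlap was 0.795% for mPIA females, 5.18% for mPIA males, 9.85% for sPIA females and 3.21% for sPIA males. Since Adm was listed for this rise, nothing is read from these shares.

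**Figure D1:**
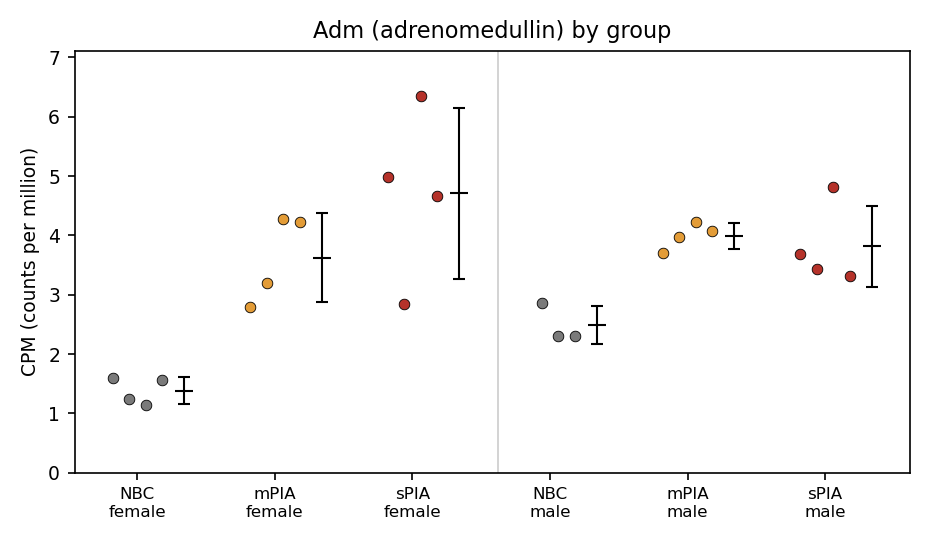
Adm in CPM (TMM-scaled) in each of the 23 libraries by group, with 1 point per library and the mean ± SD beside it. Control females lie between 1.14 and 1.6 CPM and control males between 2.3 and 2.86, below all anemic pups of the same sex.

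The larger rise in females was measured from a lower control level. NBC females were lower than NBC males in Adm by a log2 difference of -0.85 (SE 0.26), and the highest NBC female, at 1.6 CPM, lay below the lowest NBC male, at 2.3. Among all genes, 9.97% were lower in NBC females with no overlap. The female change exceeded the male change by 0.71 (SE 0.33) on the log2 scale in mPIA and by 1.15 (SE 0.33) in sPIA. The gap between the controls is itself a part of these differences, so they are not separate observations. Ordered by mean CPM, the groups ran NBC females, NBC males, mPIA females, sPIA males, mPIA males and sPIA females. In that order the step from NBC females to NBC males was free of overlap. NBC males and mPIA females overlapped between 2.79 and 2.86 CPM, and all later neighbours overlapped.

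Calcrl, the receptor itself, was higher in severe anemia in females, at 20.5 CPM against 13.9 in controls and 13.4 in moderate anemia. In males it was at 21 CPM in sPIA, 19 in NBC and 16.2 in mPIA. Unlike the values of Adm, the means of Calcrl in moderate anemia lay below those of the controls in both sexes, by changes that did not pass the test.

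NBC female libraries 1 to 4 had 13.4, 13.8, 13.1 and 15.4 CPM of Calcrl, and mPIA females had 12.8, 12.1, 13.4 and 15.2. The sPIA females had 21.3, 18.1, 23.2 and 19.4 CPM. All 4 sPIA females lay above all 8 other females. Against NBC 9.85% of all genes were higher with no overlap. Against mPIA 24.3% did not overlap, a share that counts both directions and in which 13% of all genes were lower. Against NBC the log2 change was 0.56 (SE 0.11, 95% interval 0.34 to 0.78, edgeR adjusted p = 8.00e-04), and against mPIA it was 0.62 (SE 0.11, 0.40 to 0.83, adjusted p = 2.55e-04). In mPIA against NBC females it was -0.05 (95% interval -0.27 to 0.17, edgeR adjusted p = 1).

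In males, NBC libraries 2, 3 and 4 had 16.3, 19.8 and 20.8 CPM of Calcrl. The mPIA males had 16, 16.5, 16.3 and 16 CPM, and the sPIA males had 23.4, 22.6, 18.9 and 19.2. The sPIA males lay above the mPIA males, as did 4.85% of all genes, and overlapped the controls. Calcrl rose from mPIA to sPIA males by 0.38 (SE 0.10, 95% interval 0.16 to 0.59, edgeR adjusted p = 0.0351), a call lost without any 1 of the 4 mPIA males or of sPIA males 1 and 2, with adjusted p up to 0.107. Against NBC the log2 change was -0.23 (-0.46 to 0.00, edgeR adjusted p = 0.315) in mPIA and 0.15 (-0.08 to 0.38, adjusted p = 0.641) in sPIA. NBC females had less Calcrl than NBC males, by -0.45 on the log2 scale (SE 0.11, edgeR adjusted p = 0.0141), with no overlap. Leaving out NBC male 4 ended this call (edgeR adjusted p = 0.0852). Without the 4 libraries high in choroid plexus markers the difference was -0.23. That fit had NBC male 2, the control male lowest in Calcrl, as the only control male. The sPIA females, at 20.5 ± 2.24 CPM (SD, n = 4), were near the NBC males at 19 ± 2.34 (SD, n = 3), a pair of groups that was not tested.

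Of the 4 receptor genes, Calcrl and Ramp3 passed in sPIA against NBC females and again in sPIA against mPIA females, Calcrl higher and Ramp3 lower. The background of all genes was 16% and 16.1% called in these comparisons, which share the sPIA libraries. Only Calcrl passed in sPIA against mPIA males, where 4.92% of all genes did, and in NBC females against NBC males, where 10.1% did. No receptor gene passed in mPIA against NBC in females (0.00646% of all genes called), in mPIA against NBC in males (0.653% of all genes called) or in sPIA against NBC in males (0.194%). DESeq2 and limma-voom also called 0 of the 4 in these 3 comparisons, and 0 of the 4 had an unadjusted p under 0.05, against 55, 2475 and 1880 of all genes.

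The edgeR test of the sex difference itself called 0 receptor genes at both anemia levels, as did DESeq2 and limma-voom, with 1 of the 4, Calcrl in sPIA, at an unadjusted p under 0.05. Of all genes it called 0 for mPIA (0%), with 1103 at an unadjusted p under 0.05, and 0.95% for sPIA. For Calcrl the fitted sPIA change in females exceeded that in males by 0.41 on the log2 scale (SE 0.15, 95% interval 0.10 to 0.73, edgeR adjusted p = 0.175). The corresponding difference for Ramp3 was -0.85 (SE 0.49, 95% interval -1.86 to 0.15, edgeR adjusted p = 0.392). Without the 4 libraries high in choroid plexus markers it was -2.13. That fit had NBC male 2, the control male lowest in Ramp3, as the only control male. Neither is therefore shown to differ between the sexes, and the intervals do not show that the sexes are alike.

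**Figure D2:**
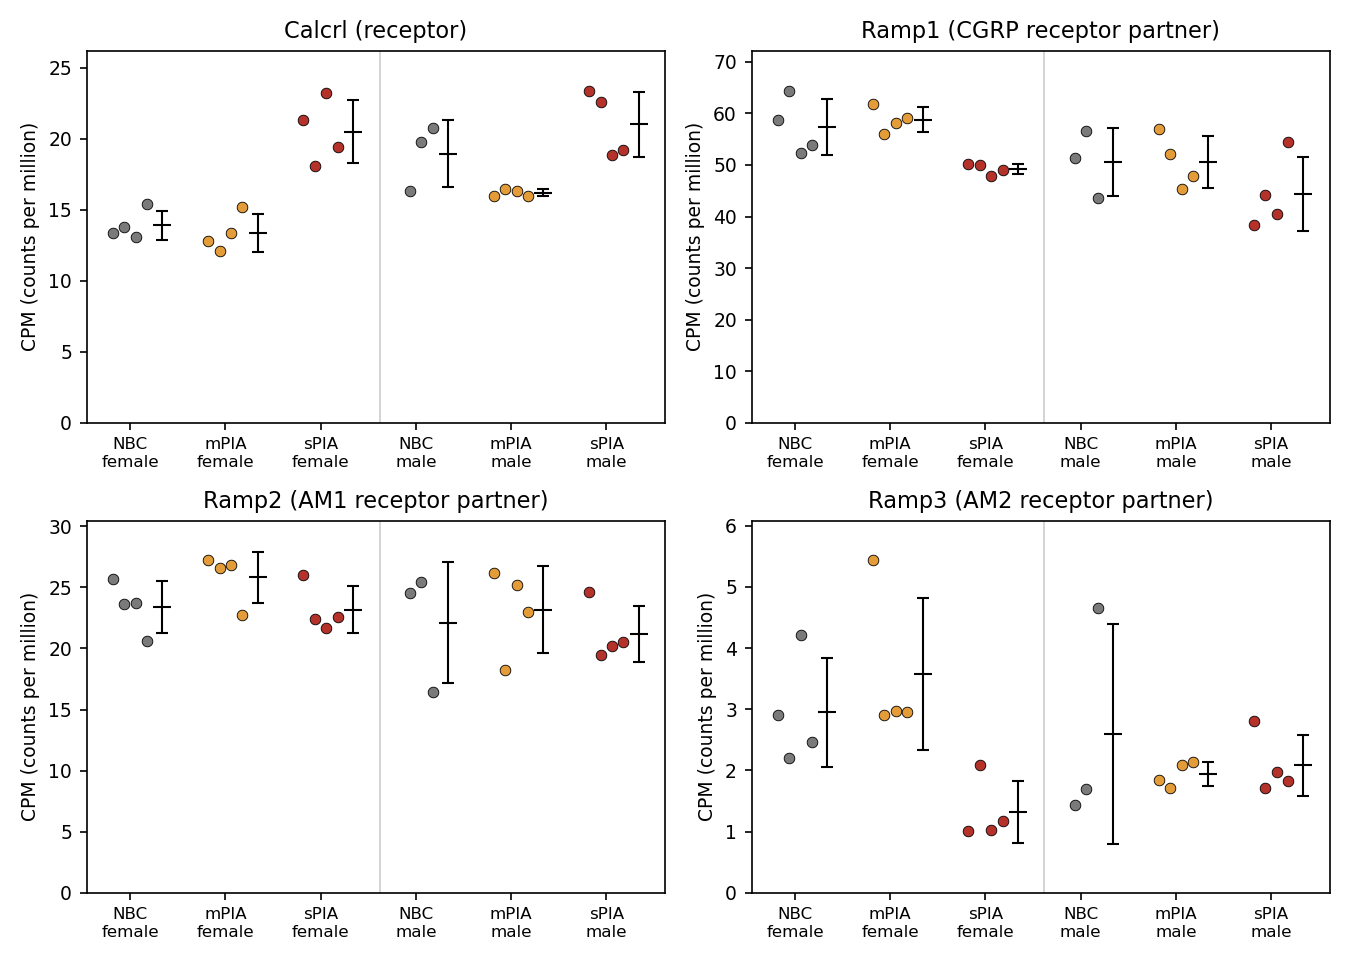
Calcrl, Ramp1, Ramp2 and Ramp3 in CPM in each library by group, with 1 point per library and the mean ± SD beside it; each panel has its own scale from 0. The sPIA females stand above the other females in Calcrl (18.1 to 23.2 CPM) and below them in Ramp3 (1.01 to 2.08 CPM) and Ramp1 (47.8 to 50.1 CPM).

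Ramp2, the partner in the main endothelial adrenomedullin receptor, had no call in any comparison. Its group means lay between 21.2 and 25.8 CPM. The lowest library was NBC male 4 with 16.4 CPM, and the highest was mPIA female 1 with 27.2. NBC females ranged from 20.6 to 25.7 CPM, mPIA females from 22.7 to 27.2 and sPIA females from 21.7 to 26, so all overlapped. In sPIA against NBC females the log2 change was -0.01 (SE 0.12, 95% interval -0.26 to 0.24, edgeR adjusted p = 0.962). In mPIA females it was 0.14 (-0.11 to 0.40) and in males 0.06 (-0.21 to 0.33) in mPIA and -0.07 (-0.34 to 0.20) in sPIA. These intervals leave room for changes of about the size seen in Ramp1.

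Ramp3, the partner in the other adrenomedullin receptor, was lower in severely anemic females, at 1.32 CPM against 2.95 in controls and 3.57 in moderate anemia. NBC female libraries 1 to 4 had 2.9, 2.21, 4.22 and 2.47 CPM, mPIA females 5.43, 2.91, 2.97 and 2.96, and sPIA females 1.01, 2.08, 1.03 and 1.18. The highest sPIA female, library 2, lay just under the lowest control female. The log2 change was -1.15 (SE 0.34, 95% interval -1.85 to -0.46, edgeR adjusted p = 0.0202) against NBC and -1.42 (SE 0.34, -2.11 to -0.73, adjusted p = 0.0041) against mPIA. In 4 of 8 fits with 1 female library left out, the call against NBC was lost, with edgeR adjusted p of 0.0937 without NBC female 3, and 0.0501, 0.0738 and 0.056 without sPIA female 1, 3 and 4. The call against mPIA held in all 8 such fits.

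In males no change of Ramp3 passed the test. NBC males 2, 3 and 4 had 1.43, 1.7 and 4.66 CPM of it, mPIA males between 1.71 and 2.13 and sPIA males between 1.72 and 2.81. The third value of the controls, from NBC male 4, was more than the other two together. The log2 change from NBC was -0.40 (SE 0.35, edgeR adjusted p = 0.604) in mPIA and -0.30 (SE 0.35, adjusted p = 0.784) in sPIA males. Without NBC male 4 these changes were 0.30 and 0.41, so that single library set their sign.

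Ramp1, the CGRP receptor partner, passed in no comparison as fitted to all 23 libraries. NBC female libraries 1 to 4 had 58.8, 64.4, 52.3 and 53.8 CPM, mPIA females 61.8, 56, 58.2 and 59.1, and sPIA females 50.1, 49.9, 47.8 and 49.1. The sPIA females again stood apart from all other females, by smaller log2 changes than in Calcrl and Ramp3. Against NBC the log2 change was -0.22 (SE 0.10, 95% interval -0.41 to -0.02, edgeR adjusted p = 0.119), and against mPIA it was -0.26 (SE 0.09, -0.45 to -0.06, adjusted p = 0.0626). With only these groups in the fit, the change against mPIA passed (-0.25, edgeR adjusted p = 0.00591). Lower levels with no overlap were seen in 11.2% and 13% of all genes in these comparisons. In males the levels were 43.6 to 56.6 CPM in NBC, 45.3 to 57 in mPIA and 38.4 to 54.4 in sPIA, which overlapped; without sPIA male 4 the change from mPIA to sPIA males passed (-0.30, edgeR adjusted p = 0.0376).

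The levels of Ramp1 and Ramp2 relative to Calcrl were lower in severely anemic females than in control females. The log2 ratio of Ramp1 to Calcrl in CPM was 2.04 ± 0.18 (SD, n = 4) in control females, 2.14 ± 0.14 with moderate and 1.27 ± 0.18 with severe anemia. In males it was 1.41 ± 0.30 (SD, n = 3) in NBC, 1.64 ± 0.15 in mPIA and 1.07 ± 0.33 in sPIA. The log2 ratio of Ramp2 to Calcrl was 0.75 ± 0.23 in NBC females and 0.18 ± 0.19 in sPIA females (SD, n = 4 in both), and 0.20 ± 0.48 in NBC (n = 3), 0.50 ± 0.25 in mPIA and 0.01 ± 0.15 in sPIA males, where NBC and sPIA overlapped. That of Ramp2 to Ramp1 had group means between -1.29 and -1.06. In the ratio of Ramp1 to Calcrl the sPIA females were nearer to the NBC males than to the NBC females. The ratios contain Calcrl itself and were taken from CPM with no trend in GC content or length removed, and they were not tested. With those trends removed, Calcrl and Ramp2 had positive log2 changes in sPIA against NBC females, 0.29 (SE 0.09) and 0.19 (SE 0.11). That of Ramp1 was -0.11 (SE 0.09). The part of these trends in the ratios was not tested.

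The libraries differed in a trend with GC content, and Calcrl lies at its low end. Calcrl transcripts have a GC content of 37.8%, and 1.84% of tested genes with a value have as little or less. Across 12557 genes, the deviation of a library from the mean was correlated with GC content, with Spearman's rho from 0.19 to 0.64 in NBC and mPIA females and from -0.52 to 0.04 in sPIA females. In NBC males rho lay between -0.33 and 0.02, in mPIA males between -0.13 and 0.36 and in sPIA males between -0.49 and -0.10. The trends in GC content and transcript length together amounted to a mean of -0.18 (log2) for Calcrl in NBC females and 0.09 in sPIA females. They amounted to 0.06 and -0.04 for Ramp1 and to 0.13 and -0.08 for Ramp2.

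With each library's trend in GC content and transcript length removed, Calcrl in sPIA against NBC females was at 0.29 (SE 0.09, edgeR adjusted p = 0.0593) and Ramp3 was at -0.97 (SE 0.35, adjusted p = 0.085). Both calls against NBC were thus lost. Against mPIA females both held, Calcrl at 0.34 (adjusted p = 0.0209) and Ramp3 at -1.22 (edgeR adjusted p = 0.0219). The call of Calcrl in sPIA against mPIA males went to 0.23 (adjusted p = 0.208) and that in NBC females against males to -0.17 (adjusted p = 0.373). Adm, with a GC content of 50.7%, had log2 changes of 1.39 and 1.86 in mPIA and sPIA females and of 0.68 and 0.61 in males after the same step, all within 0.1 of the values before it. The codes in the labels that number the libraries also differ between groups: sPIA pups and NBC males share a series that NBC and mPIA females do not have. Within 1 series lie mPIA against NBC females, where Adm changed by 1.39 (SE 0.20) with the code as a block, and sPIA against NBC males, where it changed by 0.62 (SE 0.24). In the other comparisons code series and group cannot be told apart. The labels also give S numbers, from 13 to 20 in the sPIA libraries and from 38 to 55 in the NBC and mPIA libraries. In every comparison of sPIA with NBC or mPIA, that of males with NBC among them, S number and group cannot be told apart.

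**Figure D3:**
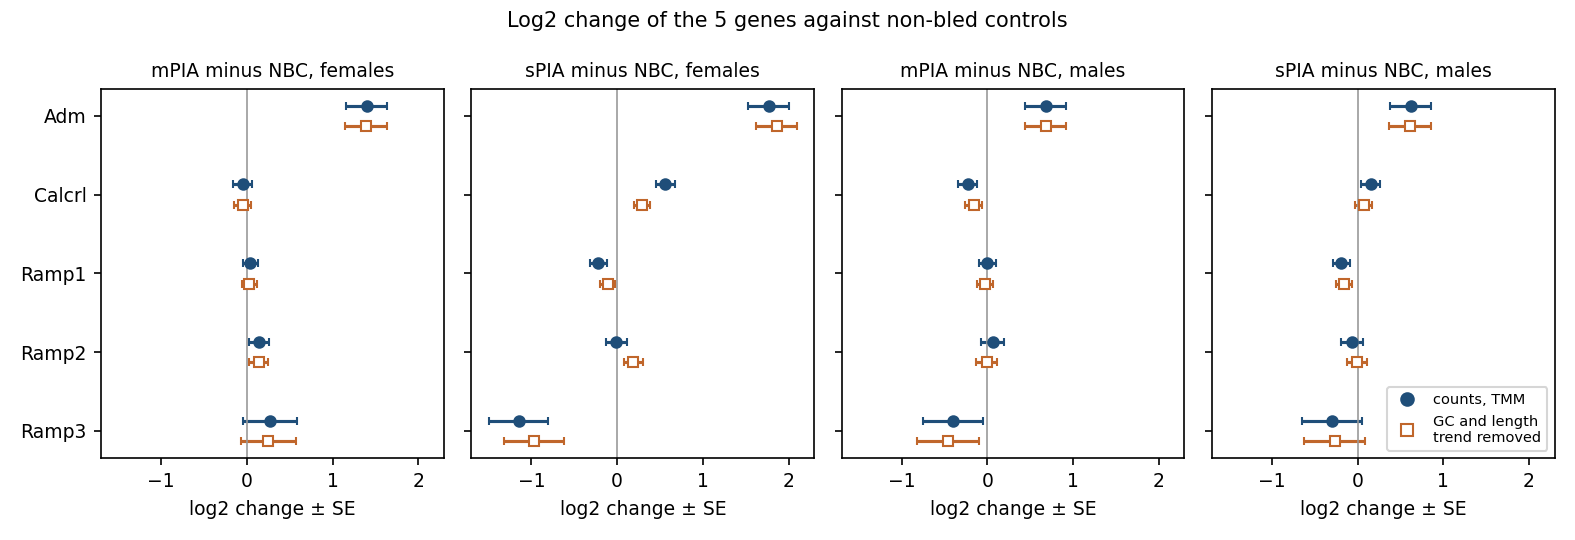
Log2 change ± SE of the 5 genes against non-bled controls of the same sex, as fitted to the counts (filled circles) and with each library's trend in GC content and length removed (open squares). Adm lies to the right of 0 in all 4 panels and hardly moves between the fits, while Calcrl in sPIA females moves from 0.56 to 0.29.

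Across the 23 libraries, the gene most like Adm in log2 CPM was Vegfa, the vascular endothelial growth factor, of 12506 genes compared (Pearson's r 0.83, Spearman's rho 0.78). After it came Kcnt2, a sodium-activated potassium channel (r 0.71), Add3, a cytoskeletal adducin (0.68), Kdr and Flt1, receptors of vascular endothelial growth factor (0.67 each), and Zcwpw1 (0.67). Without NBC females 2 and 3, the libraries farthest from the median of Adm, r with Vegfa was 0.79. Taken as deviations from the group means, r was 0.43 with Vegfa, 0.49 with Kcnt2 and 0.57 with Add3, but 0.06 with Kdr and 0.05 with Flt1. The likeness to the growth factor receptors thus lay in the group means. These values describe the 6 highest of many and share groups and libraries.

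**Figure D4:**
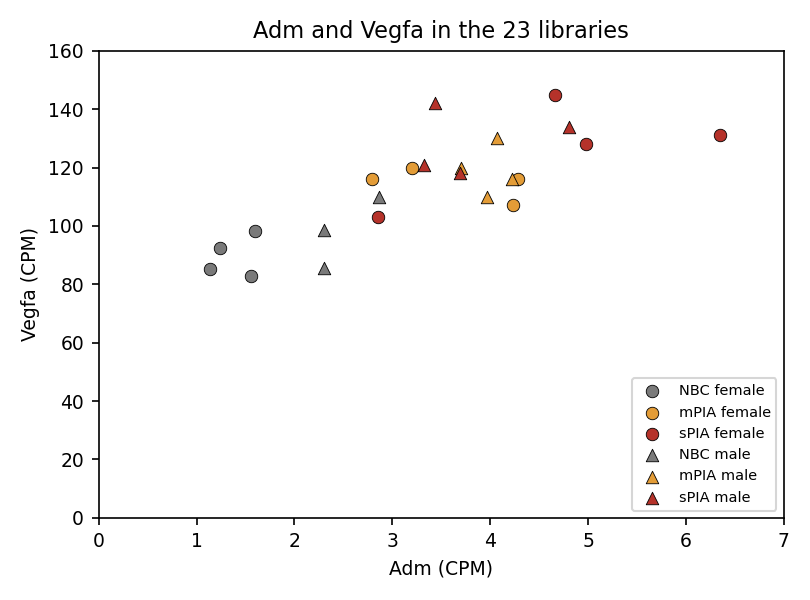
Vegfa against Adm, both in CPM, in the 23 libraries, with circles for females and triangles for males and 1 colour per anemia level. Control libraries fill the lower left, with Vegfa at 82.7 to 110 CPM, and anemic libraries have Vegfa at 103 to 145 CPM and Adm from 2.79 CPM up, against up to 2.86 CPM of Adm in controls.

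The genes most like the receptor genes were of other kinds. Calcrl followed Tmem47, Anp32e and Vma21 (r 0.94 each), which have GC contents of 37.4%, 44.6% and 37.3%. Ramp1 was most like Ndufa2, a subunit of mitochondrial complex I (r 0.90), Pmm1 and Timm13 (0.88 each). Ramp2 was most like Sh2b3 (r 0.83), Rps26 (0.80) and Tmem252 (0.79). Ramp3 was most like Gpr21 (r 0.85), Brinp3 (0.83) and Vwc2l (0.80). No gene stood among the most like of more than 1 member.

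Within groups no pair of members passed a test of common variation. Over the 10 pairs of members, as deviations from group means in 23 libraries, the strongest relation was that of Adm with Ramp3 (Pearson's r -0.53, permutation p = 0.0219, adjusted p = 0.219; Spearman's rho -0.32, permutation p = 0.172, adjusted p = 0.508). Without the 2 libraries farthest from the median in Adm, r was -0.41. Ramp1 with Ramp3 gave r -0.45 (permutation p = 0.07, adjusted p = 0.35) and rho -0.41 (permutation p = 0.0818, adjusted p = 0.508), and r was -0.35 without the 2 farthest libraries.

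Apart from Calca, the genes of other peptides that use these receptors were scarce. Calca, which encodes calcitonin and CGRP, was the 1 of 5 listed family genes that passed the low-count filter, at group means of 1.1 to 1.93 CPM. In NBC females its mean was 1.85 CPM, above the 1.38 of Adm, while Adm had the higher mean in every other group. Calca passed no test, with a log2 change of -0.57 (SE 0.36, edgeR adjusted p = 0.3) in sPIA females. Calcb, the other CGRP gene, reached at most 15 counts in a library and Calcr, the calcitonin receptor, at most 4. Adm2, a relative of adrenomedullin that uses the same receptors, and Iapp, which encodes amylin, had 0 counts in all 23 libraries, which allows up to 0.197 CPM in the shallowest library (3 counts, counting error only).

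Of 6 genes that process, bind or remove the peptide, edgeR and limma-voom called 0 against NBC at either level in either sex in the fits to all 23 libraries, and DESeq2 called 2 in mPIA males. Of all genes, edgeR called 0.00646% in mPIA females, 0.653% in mPIA males, 16% in sPIA females and 0.194% in sPIA males. Other edgeR fits made calls: in mPIA males 1, Mmp2, a matrix metalloproteinase (-1.26, adjusted p = 0.0484), with GC and length trends removed and 2 without NBC male 2, in sPIA males 1 without NBC male 2, and in sPIA females 1 with only the groups compared. At an unadjusted p under 0.05 there were 0 in mPIA females, 3 in mPIA males, 1 in sPIA females and 3 in sPIA males. Pam, which amidates adrenomedullin into its active form, had group means between 191 and 198 CPM, and Ackr3, an atypical receptor that takes the peptide up, had log2 changes of 0.19 (SE 0.13) in sPIA females and -0.33 (SE 0.14) in sPIA males.

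Of 25 genes of receptor coupling, cyclic AMP and nitric oxide signalling, 1 rose and 4 fell in sPIA against NBC females, beside 16% of all genes called, with a list median of -0.00 beside -0.00 for all genes. Creb1, a transcription factor that cyclic AMP signalling activates, was at 58.2 ± 4.73 CPM in NBC and 82 ± 7.75 in sPIA (SD, n = 4 in both), a rise of 0.50 on the log2 scale (edgeR adjusted p = 2.90e-04). The adenylate cyclases Adcy8 (-0.57, adjusted p = 0.00119), Adcy7 (-0.57, 0.0151) and Adcy2 (-0.22, 0.0268) fell, and so did Prkar1b, a regulatory subunit of protein kinase A (-0.21, 0.00942). The members of the list thus moved in both directions. With GC and length trends removed 2 rose and 2 fell, Creb1 (0.21, adjusted p = 0.0361) and Arrb2, an arrestin (0.25, 0.0444), Adcy8 and Adcy7, while Adcy2 (adjusted p = 0.168) and Prkar1b (-0.04, adjusted p = 0.732) did not. With 1 library left out, Creb1 and Adcy8 passed in 8 of 8 fits, Prkar1b in 7, Adcy7 in 6 and Adcy2 in 2; leaving out sPIA female 3 gave these 3 their highest edgeR adjusted p (0.0574, 0.0657 and 0.115). Nos3, the endothelial nitric oxide synthase, had a log2 change of -0.37 (SE 0.15, edgeR adjusted p = 0.0914).

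Against NBC, edgeR called 0.00646% of all genes in mPIA females, 0.653% in mPIA males and 0.194% in sPIA males. Of the 25 listed genes, 0 passed in these comparisons with edgeR and limma-voom. DESeq2 called 1 in mPIA males, and 0, 4 and 2 had an unadjusted p under 0.05. Between sPIA and mPIA females 1 rose and 4 fell, Adcy8 (-0.56), Adcy7 (-0.48), Adcy2 (-0.23) and Prkar1b (-0.22), and Creb1 was at 0.52 (edgeR adjusted p = 1.36e-04), beside 16.1% of all genes called. With GC and length trends removed Creb1 (0.23, adjusted p = 0.0226) and Adcy8 (-0.58) passed, while Adcy7 (adjusted p = 0.0654), Adcy2 (0.12) and Prkar1b (0.685) did not. With 1 library left out Adcy7 passed in 4 of 8 fits (up to 0.236, without mPIA female 1) and Adcy2 in 5 (up to 0.0783, without sPIA female 3). Between sPIA and mPIA males Prkar2b, another regulatory subunit, rose by 0.31 (edgeR adjusted p = 0.0408), beside 4.92% of all genes called, a call lost with GC and length trends removed (adjusted p = 0.118) and in 4 of 8 fits with 1 library left out (up to 0.149, without sPIA male 2). For Creb1 the severe anemia effect differed between the sexes by 0.49 (SE 0.12, edgeR adjusted p = 0.0488), beside 0.95% of all genes called. With those trends removed the difference was 0.25 (adjusted p = 0.2). It passed in 6 of 15 fits with 1 library left out (up to 0.128, without NBC male 4). Creb1 and Prkar2b were also lower in NBC females than in NBC males, by -0.49 and -0.30, beside 10.1% of all genes called. Both calls were lost with GC and length trends removed (edgeR adjusted p = 0.0748 and 0.154). They were also lost without the 4 libraries high in choroid plexus markers, a fit with NBC male 2 as the only control male. With 1 library left out Creb1 passed in 7 of 7 fits and Prkar2b in 1 (up to 0.246, without NBC male 4).

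Of 7 other receptors known to pair with RAMPs, 5 passed the low-count filter. In sPIA against NBC females 2 of them fell, beside 16% of all genes called. Crhr1, a receptor of corticotropin-releasing hormone, went from 16.3 ± 1.9 to 10.7 ± 0.893 CPM (SD, n = 4 in both; log2 change -0.60, edgeR adjusted p = 0.0015). Pth1r, the parathyroid hormone receptor, went from 5.56 ± 0.434 to 3.23 ± 0.686 CPM (SD, n = 4 in both; -0.78, adjusted p = 0.00623), and to -0.54 (adjusted p = 0.0679) with GC and length trends removed. The 5 had a median of -0.07, beside -0.00 for all genes, and 0 of them passed in the other 3 comparisons with NBC by edgeR, DESeq2 or limma-voom, with 2 at an unadjusted p under 0.05 in mPIA males. The share of all genes called there by edgeR was 0.00646% in mPIA females, 0.653% in mPIA males and 0.194% in sPIA males. Between sPIA and mPIA females the same pair fell, with log2 changes of -0.79 for Pth1r and -0.48 for Crhr1, beside 16.1% of all genes called. With GC and length trends removed Pth1r passed (-0.57, edgeR adjusted p = 0.0485) and Crhr1 did not (-0.28, 0.113). For Crhr1 the severe anemia effect differed between the sexes by -0.80 (SE 0.18, edgeR adjusted p = 0.0336), beside 0.95% of all genes called. With the trends removed the difference was -0.65 (adjusted p = 0.0563). It passed in 9 of 15 fits with 1 library left out (up to 0.0943, without NBC female 1). Crhr1 was also higher in NBC females than in NBC males, by 0.54 (edgeR adjusted p = 0.012), beside 10.1% of all genes called. That call was lost with the trends removed (0.36, adjusted p = 0.0856) and held in 5 of 7 fits with 1 library left out. The gap between the controls is itself a part of the sex difference.

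Of 18 other genes known to be induced by low oxygen, 0 passed in mPIA females by edgeR, DESeq2 or limma-voom in the fits to all 23 libraries. All genes called there by edgeR came to 0.00646%. With the library code as a block and only NBC and mPIA females in the fit, 2 passed, Vegfa (0.36, SE 0.04, edgeR adjusted p = 0.00596) and Slc2a1, a glucose transporter (0.33, SE 0.05, adjusted p = 0.0282). In the fit to all libraries 5 had an unadjusted p under 0.05, 14 had a positive log2 change, and the median was 0.10 beside -0.01 for all genes. In sPIA females 3 rose and 2 fell, beside 16% of all genes called, with a median of 0.15. Vegfa rose from 89.5 ± 6.99 to 127 ± 17.8 CPM (SD, n = 4 in both; 0.50, edgeR adjusted p = 4.39e-04), and P4ha1, a collagen prolyl hydroxylase, by 0.33 (adjusted p = 0.003). Bnip3, a mitochondrial protein of autophagy, rose by 0.24 (edgeR adjusted p = 0.0308). The call of Bnip3 was lost in 3 of 8 fits with 1 library left out (up to 0.165, without sPIA female 3). With GC and length trends removed Bnip3 was at 0.12 (adjusted p = 0.257). Ddit4, a stress-induced inhibitor of mTOR signalling, passed with those trends removed (0.33, edgeR adjusted p = 0.0491). Ndrg1 (-0.49, adjusted p = 0.00954) and Bhlhe40 (-0.32, adjusted p = 0.00879) fell, calls lost without sPIA female 3 (Ndrg1, 0.0525) and without NBC female 1 (Bhlhe40, 0.0601). In males Bhlhe40, a transcriptional repressor, passed in mPIA (0.53, edgeR adjusted p = 0.0111), beside 0.653% of all genes called. That call was lost without NBC male 4 (0.129) and with only the groups compared in the fit. In sPIA males 0 of 18 passed, beside 0.194% of all genes called, with 1 by DESeq2 and 4 at an unadjusted p under 0.05. Against mPIA, Ndrg1 (-0.65) and Bhlhe40 (-0.49) were lower and P4ha1 (0.22) higher in sPIA females, beside 16.1% of all genes called. Bhlhe40 (-0.49) was also lower in sPIA than in mPIA males, beside 4.92% of all genes called. The call of P4ha1 was lost with GC and length trends removed (0.15, edgeR adjusted p = 0.25) and in 6 of 8 fits with 1 library left out (up to 0.148, without sPIA female 1). Ankrd37, an ankyrin repeat protein, had log2 changes of 0.71 (SE 0.19, edgeR adjusted p = 1) in mPIA and 0.42 (SE 0.19, adjusted p = 0.144) in sPIA females. The log2 changes of Adm in females were larger than those of the other genes of this list that are named here, which was not tested. Since Adm was listed for its rise, nothing is read from this order.

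The summed level of endothelial markers was 281 to 316 CPM in control females, 298 to 343 with moderate and 322 to 365 with severe anemia, so that the sPIA females lay above the controls. Of the 12 markers 2, Flt1 (0.57, edgeR adjusted p = 0.00327) and Eng (0.45, adjusted p = 0.00417), rose in sPIA against NBC, near the 16% of all genes called there. In males the sums were 304 to 327 CPM in NBC, 284 to 391 in mPIA and 301 to 363 in sPIA. Against NBC 1 of 12 was higher in mPIA males (Eng), beside 0.653% of all genes called. In NBC females against males 1 of 12 (Cdh5) was lower, beside 10.1% of all genes called. Pericyte and smooth muscle markers summed to between 213 and 394 CPM. Of these, 1 of 10 was higher in sPIA than in NBC females (Abcc9), beside the 16% of all genes. Hippocampal excitatory neuron markers summed to 5760 to 6540 CPM in NBC, 5610 to 5940 in mPIA and 6380 to 7300 in sPIA females. The sPIA females thus lay above the mPIA females and overlapped the controls. In sPIA against NBC females 2 of 10 rose, Neurod6 (0.40, edgeR adjusted p = 0.0181) and Camk2a (0.28, adjusted p = 0.0185), beside the same 16% of all genes. In males these sums overlapped, at 5440 to 6940 CPM in NBC, 6480 to 7080 in mPIA and 5460 to 7080 in sPIA. No marker of these lists was at 0 in any group. The part of vessel cells in the levels of Adm, Calcrl and the RAMPs was not tested.

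Markers of tissue next to the hippocampus also varied. Those of thalamus summed to 104 to 155 CPM in NBC, 117 to 161 in mPIA and 127 to 170 in sPIA females, and to 131 to 194 in males. Meningeal markers summed to 229 to 324 CPM in NBC, 226 to 333 in mPIA and 178 to 494 in sPIA females. In males they summed to 243 to 695 CPM in NBC, 165 to 276 in mPIA and 234 to 389 in sPIA. In sPIA against NBC females 1 of 8 thalamus markers (Lef1) and 1 of 10 meningeal markers (Foxc1) were higher, beside 16% of all genes called. All 10 meningeal markers had negative log2 changes from NBC in males, with a median of -1.05 in mPIA and -0.41 in sPIA. As deviations from group means over 23 libraries, Ramp3 had a Pearson's r of 0.62 with the thalamus sum and 0.56 with the meningeal sum. Ramp1 had -0.70 with the thalamus sum, and Adm had -0.63 with the choroid plexus sum and -0.58 with the meningeal sum. Ramp2 had 0.64 with the hippocampal excitatory neuron sum and 0.44 with the endothelial sum. Calcrl had values between -0.18 and 0.30 with the 7 lists. These values share libraries and depth and describe the libraries only. The part of neighbouring tissue or of cell types in the levels of the members was not tested.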

How the data were processed

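The deposited values are raw read counts per gene (whole numbers, with totals that differ between libraries). The build mm10 and the tools FastQC, TopHat2 2.0.13, Subread and edgeR are named per the submitters' processing notes. The sources used here do not name their order, the annotation or the strand setting. All 23 columns matched a sample by name, with 0 left over.

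Genes were tested by quasi-likelihood in edgeR 4.0.16 (R 4.3.3), with 1 fit of 23 libraries with 6 group means, TMM factors and filterByExpr (minimum count 10, minimum total 15). P-values were adjusted by Benjamini-Hochberg over the 15475 genes tested, at 0.05. CPM values use TMM-scaled library sizes, and log2 CPM a prior count of 2. Loci, GC content and exon lengths came from GENCODE M21, which matched 23309 of 24421 rows (95.4%), and upstream sequence from RefSeq, which gave 4 of the 5 genes. Relations between members used 100000 permutations within groups (SciPy 1.17.1). The test script was tested on simulated data. Figures used matplotlib 3.10.9.

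Groups came from the labels. The members, lists and tests were chosen with earlier results of these data known. Named were the 5 members, called genes of each pathway list (up to 4 a comparison by smallest p), and the 6 genes most like Adm and 3 most like each other member by Pearson's r. The rows of 1 pathway gene are not reported here. Genes named outside this rule, after their values were seen, were Adcy2, Bnip3, Pam, Ackr3, Calca, Calcb, Calcr, Adm2, Iapp, Nos3, Ankrd37, Mmp2, Arrb2, Slc2a1, Ddit4 and the called markers. Same-numbered libraries did not deviate together (r between -0.08 and 0.15, not above 0.1 for every pair of any comparison). Alternatives were RLE factors, DESeq2 1.42.0, limma-voom (limma 3.58.1), no low-count filter, only the groups compared, a replicate block, a library code block, GC and length trends removed, leaving out each library and, chosen after seeing the data, leaving out 4 libraries high in choroid plexus markers together.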

Additional observations from a re-analysis of the deposited data

Results flagged for a closer look

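Of 25 groups of 4 libraries checked for a library far from the others, 3 held one, where chance gives about 1 in 20. For Ramp3, mPIA female 1 lay at 5.43 CPM, with the nearest library of its group at 2.97, and sPIA female 2 lay at 2.08 CPM, with the nearest at 1.18. For Ramp2, mPIA female 4 lay at 22.7 CPM, with the nearest at 26.6. The Ramp3 value of mPIA female 1 raised the mean of that group, and the call of Ramp3 in sPIA against mPIA females held in all 8 fits with 1 library left out. sPIA female 2 also had 1410 CPM of choroid plexus markers. Ramp3 was further picked out in moderate anemia because the libraries of the 2 sexes moved in opposite directions against their control means, by a mean log2 difference of 0.47 between the sexes. That difference was not tested as such, and the fitted sex difference was 0.67 (SE 0.47, edgeR adjusted p = 0.796), with NBC male 4 in the control mean of the males.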

How the results depend on the processing

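For Adm, all alternatives kept the direction of the 4 changes from NBC: log2 changes of 1.30 to 1.51 in mPIA females, 1.59 to 1.96 in sPIA females, 0.48 to 0.78 in mPIA males and 0.42 to 0.72 in sPIA males. An alternative chosen after seeing the data left out the 4 libraries with over 1000 CPM of choroid plexus markers. It left NBC male 2 as the only control male and gave the lowest male values. It also took the sex difference of the Adm change in sPIA from 1.15 to 1.48. Of 620 values of the receptor genes under alternatives, 600 kept their call or stayed without one, 18 lost a call and 2 gained one. Most of the 600 had no call to lose, so they do not measure how well the calls held. In sPIA against NBC females Calcrl kept its call in 15 of 16 alternatives and Ramp3 in 11. Both kept it in 16 of 16 in sPIA against mPIA females. Calcrl also lost calls in sPIA against mPIA males and in NBC females against males, as given below. The number of receptor genes that passed in sPIA against NBC females was 2, and 0 with GC and length trends removed and 1 to 2 with a library left out. In sPIA against mPIA males it was 1, 0 with only the groups compared in the fit, 0 with the trends removed and 0 to 2 with a library left out. In NBC females against NBC males it was 1, 0 with only the groups compared, 0 with the trends removed and 0 to 1 with a library left out (0 without NBC male 4). The cause was not tested. In sPIA against mPIA females it was 2, and 3 with only the groups compared, where Ramp1 passed (-0.25, edgeR adjusted p = 0.00591). Ramp1 also passed in sPIA against mPIA males without sPIA male 4 (-0.30, edgeR adjusted p = 0.0376), and Calcrl there passed in 7 of 15 alternatives.

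With the replicate block, a fit of numbers that do not pair these mice, 2 receptor genes passed in sPIA against NBC females and 2 in sPIA against mPIA females, 1 in sPIA against mPIA males and 1 in NBC females against males, as without it. Under that block Adm changed by 1.38 and 1.74 in mPIA and sPIA females and by 0.69 and 0.62 in males. The block gave 0 against 1 called gene in mPIA females, 43 against 101 in mPIA males and 93 against 147 for the sex difference of the sPIA effect.

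Counts of all called genes also moved with the processing, on a scale that cannot be set against counts out of 4 receptor genes. They ranged over the alternatives from 0 to 6 in mPIA females, 0 to 1124 in mPIA males, 1181 to 2882 in sPIA females and 4 to 249 in sPIA males, each against NBC. They ranged from 1425 to 3312 between sPIA and mPIA females, 230 to 1340 in males, 0 to 69 and 5 to 452 for the sex differences in mPIA and sPIA, and 40 to 2152 between the controls. Depth limits Adm and Ramp3 most, with as few as 21 and 19 counts in a library.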
